A study of Mus musculus with 4 samples.

Results

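The fatty acid desaturases and elongases examined here were the 10 genes Scd1, Scd2, Fads1, Fads2, Fads3, Elovl1, Elovl2, Elovl3, Elovl5 and Elovl6, out of 12393 genes for which at least 1 probe set names that gene alone. They were chosen by gene symbol, and every probe set annotated to 1 of these symbols alone was taken, which gave 19 probe sets. Liver RNA came from male mice of 12 to 20 weeks in 4 groups, namely PPARα-null mice (129S4/SvJae) fasted for 24 hours, wild-type mice (129S1/SvImJ) fasted for 24 hours, fed PPARα-null mice and fed wild-type mice. All were kept on laboratory chow, and none of these groups was given a PPARα agonist. RNA of 5 mice by the design text was pooled per group and run on 1 Affymetrix MOE430A array per group, so no difference has a replicate check and no p-value is given. Another source allows for pools of fewer animals, which could not be settled here. The null mice lack PPARα in the whole animal and belong to another substrain than the wild-type mice, so genotype and substrain cannot be told apart.

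Desaturases and elongases remodel the fatty acids that the liver makes or takes up. Stearoyl-CoA desaturases insert the first double bond into saturated acyl chains and so yield oleate and palmitoleate. The FADS enzymes add double bonds to dietary linoleate and linolenate, and the ELOVL enzymes catalyse the first, condensing step of chain elongation in the endoplasmic reticulum. In liver many of these genes are known targets of the insulin-responsive factor SREBP-1c and of LXR, and several are also known to respond to PPARα agonists.

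Intensities are GCRMA values on a linear scale, and values under 16 units (log2 of 4) were set to that floor before differences were taken. Each gene is represented by its brightest probe set (mean of log2 values over the arrays), and a gene was measured when at least 1 array was above the floor. A difference was counted when it reached 1.5-fold, or 0.585 on the log2 scale. Of the 10 genes 9 were measured, and 6947 of all 12393 genes. Fads3, whose enzyme is less well characterized, was under the floor on all 4 arrays in both of its probe sets, with its highest value at 12.6 units in the fasted null pool. Scd2, the desaturase isoform prominent in brain and adipose tissue, was above the floor only in the fed null pool at 16.7 units, and its other 2 probe sets were under the floor throughout. The remaining 8 genes were above the floor on all arrays, except Elovl6 in the fasted null pool.

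Facts of the whole arrays bear on these values. Ppara, the targeted gene, read 16.3 units in fasted null and 755 units in fasted wild-type liver, and 104 units in fed null and 583 units in fed wild-type liver, and the part of the gene that its probe set covers is not known here. The hepatocyte markers Alb, Apoa1, Ttr, Cps1 and Tat read between 3638 and 27923 units on all arrays, whereas the 5 adipocyte markers with a probe set (Adipoq, Lep, Retn, Cidea and Ucp1) were under the floor on all 4. By the 1.5-fold criterion, 8.58% of all measured genes were higher and 13.6% lower in null liver in the fasted pools. In the fed pools these shares were 2.38% higher and 2.12% lower. Of 8 measured Kupffer cell and macrophage markers, 6 were at least 1.5-fold higher in the fasted null pool. Their summed levels were 774 units in fasted null and 360 units in fasted wild-type liver. In the fed pools the sums were 661 units in null and 599 units in wild-type liver, with 0 of 8 past the threshold. Of 4 measured stellate cell and fibroblast markers, 3 were higher in null liver in the fasted pools, with sums of 818 units in null and 307 units in wild-type liver, and 3 in the fed pools, with sums of 749 units in null and 411 units in wild-type liver. Vim alone gave most of the fasted sums, at 728 units in null and 253 units in wild-type liver. The fasted differences of Col1a2 and Col3a1 are bounds, since both were under the floor in wild-type liver. Of 4 measured endothelial markers 2 were higher in fasted null liver, with sums of 700.1 units in null and 366 units in wild-type liver, and 0 passed the threshold in the fed pools, with 256 units in null and 292 units in wild-type liver. Stab2 alone gave most of the fasted sums, at 637 units in null and 314 units in wild-type liver. Kdr went the other way, at 16.9 units in fasted null and 19.4 units in fasted wild-type liver, within the threshold. Sox9, the 1 measured biliary marker, read 33.9 units in fasted null and 20.8 units in fasted wild-type liver, and 20.7 units in fed null and 23.6 units in fed wild-type liver. The part of these cell types in the results was not tested. In pooled tissue a different share of a cell type cannot be told apart from a different amount of RNA per cell.

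The Fads genes and the Scd genes each form a cluster. By the order of coding genes in the RefSeq annotation (GRCm38.p6), Fads3, Fads2 and Fads1 are direct neighbours on chromosome 19, and Scd2 and Scd1 stand there on either side of Scd4. Elovl3 lies on the same chromosome, so that 6 of the 10 genes are on chromosome 19, and Elovl1, Elovl2, Elovl5 and Elovl6 are on chromosomes 4, 13, 9 and 3. Promoter windows were present in the RefSeq promoter table for 6 of the 10 genes (Fads2, Fads3, Elovl1, Elovl2, Elovl5 and Elovl6). The 250 bases before the annotated start are shown for Fads2 and Elovl5, which were higher on fasting in wild-type liver, and for Elovl6, which was lower. Capitals mark exact matches, on either strand, to 5 motifs, namely CACGTG (the E-box, bound by ChREBP and USF), CCAAT (bound by NF-Y), TCACCCCAC (the core of a sterol regulatory element, bound by SREBP), AGGTCA (bound by many nuclear receptors) and the direct repeat AGGTCANAGGTCA (a PPAR response element), which contains the fourth. Fads2 is shown at chr19:10101504-10101753 on the minus strand, Elovl5 at chr9:77917115-77917364 on the plus strand and Elovl6 at chr3:129532136-129532385 on the plus strand.
Fads2: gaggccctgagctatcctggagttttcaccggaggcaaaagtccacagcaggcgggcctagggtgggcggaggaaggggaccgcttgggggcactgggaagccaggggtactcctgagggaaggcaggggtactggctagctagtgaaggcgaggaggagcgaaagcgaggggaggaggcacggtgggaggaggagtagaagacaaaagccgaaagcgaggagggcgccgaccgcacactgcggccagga
Elovl5: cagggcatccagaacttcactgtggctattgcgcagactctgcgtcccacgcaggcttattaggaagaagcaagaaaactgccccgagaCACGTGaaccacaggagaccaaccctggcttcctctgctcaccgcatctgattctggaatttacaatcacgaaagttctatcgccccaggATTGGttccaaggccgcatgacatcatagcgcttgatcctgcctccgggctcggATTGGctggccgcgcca
Elovl6: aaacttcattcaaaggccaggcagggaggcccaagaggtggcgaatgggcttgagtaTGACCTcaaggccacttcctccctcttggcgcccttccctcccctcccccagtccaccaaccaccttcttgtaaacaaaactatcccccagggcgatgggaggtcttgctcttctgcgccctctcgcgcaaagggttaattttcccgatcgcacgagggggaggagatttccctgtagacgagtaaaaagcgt

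The Elovl5 window held 1 E-box from base 161 to base 156 before the start, and 2 CCAAT motifs on the opposite strand at bases 71 to 67 and 17 to 13 before it. The Elovl6 window held 1 AGGTCA motif on the opposite strand, from base 193 to base 188 before the start. The Fads2 window held no match to any of the 5 motifs. Over all 32851 promoter windows of the same length, 6.02% held the E-box, 33.8% held CCAAT, 14% held AGGTCA, 0.496% held the sterol element core and 0.0335% held the direct repeat. The matches describe letters in these windows and not binding.

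**Figure D1:**
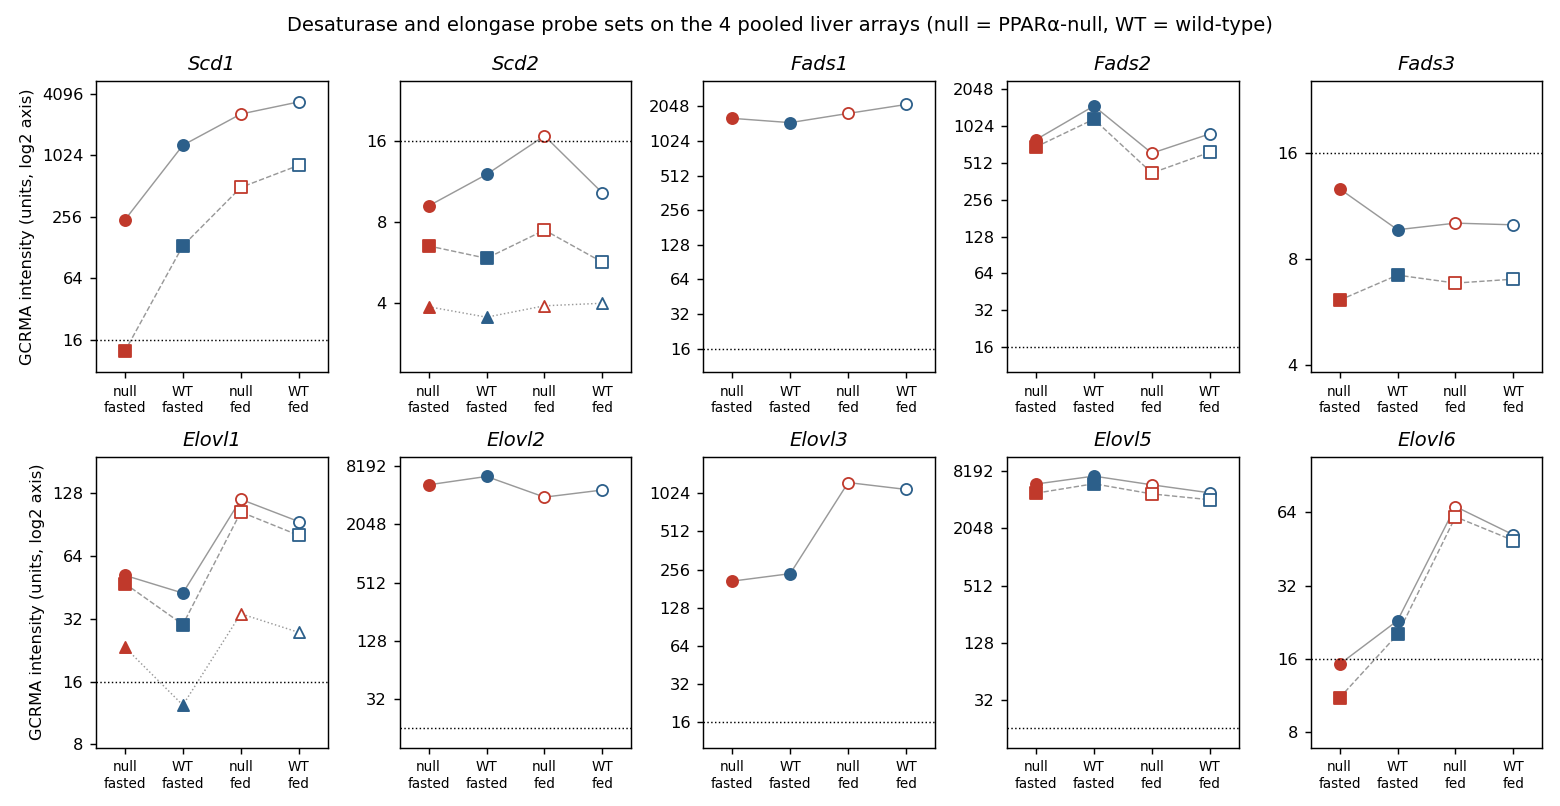
GCRMA intensity (log2 axis, units) of all 19 probe sets of the 10 genes on the 4 pooled arrays, with 1 panel per gene and its probe sets as circles, squares and triangles in order of brightness. Red is PPARα-null and blue wild-type, filled symbols are fasted and open symbols fed, and a dotted line marks 16 units, the floor. Scd1 read 238 units in fasted null and 3399 units in fed wild-type liver, whereas Fads3 lay under the floor on all arrays.

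Fasted PPARα-null and fasted wild-type liver were compared to see which of these genes differed between the 2 fasted pools. Scd1 and Fads2 were lower in the fasted null pool, and none of the 10 genes was at least 1.5-fold higher. The count of 2 of 9 measured genes stands against a background of 13.6% of all measured genes lower and 8.58% higher, so the count by itself is near the background. The median log2 difference of the 9 measured genes was -0.28, and that of all measured genes was -0.01. Bright probe sets, of 64 units or more, had a median of -0.152 between the fasted pools. With the arrays centred on bright probe sets, the median of the 9 genes was -0.126. Scd1 at -2.275 and Fads2 at -0.764 then stayed past the threshold.

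Scd1, the main hepatic stearoyl-CoA desaturase, read 238 units in fasted null and 1279 units in fasted wild-type liver, a 5.38-fold lower level. Its dimmer probe set read 12.3 units in fasted null liver, under the floor, and 133 units in fasted wild-type liver, so that its log2 difference of -3.05 is a bound. Both probe sets therefore placed Scd1 lower in the null pool by more than the threshold.

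Fads2, which encodes the desaturase of the first step from linoleate and linolenate to longer polyunsaturated fatty acids, read 796 units in fasted null and 1501 units in fasted wild-type liver. Fads2 was 1.89-fold lower, and its dimmer probe set had a log2 difference of -0.75. Its neighbour Fads1, the gene of the desaturase that acts later in the same pathway, read 1615 units in fasted null and 1482 units in fasted wild-type liver. The log2 difference of 0.12 for Fads1 was under the threshold and opposite in sign to that of Fads2.

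None of the elongase genes passed the threshold between the fasted pools by its brightest probe set. Elovl5 and Elovl2 elongate polyunsaturated fatty acids, with Elovl2 acting on the longer ones on the way to docosahexaenoate. Elovl5 read 6005 units in fasted null and 7283 units in fasted wild-type liver, a log2 difference of -0.28. Elovl2 read 5272 units in fasted null and 6436 units in fasted wild-type liver, a log2 difference of -0.29. Both genes were thus slightly lower in the null pool, within the 1.5-fold limit. With the arrays centred on bright probe sets, the log2 differences were -0.126 for Elovl5 and -0.136 for Elovl2.

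Elovl3, the elongase gene of very long saturated and monounsaturated chains, read 207 units in fasted null and 238 units in fasted wild-type liver. Elovl6, whose enzyme elongates palmitate to stearate, read 15.2 units in fasted null liver, under the floor, and 23.0 units in fasted wild-type liver. Its log2 difference of -0.52 is a bound set by the floor, and without a floor it was -0.59, just past the threshold. Both values lie so low that the fasted comparison of Elovl6 has little resolution.

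Elovl1, which elongates saturated very long acyl chains for sphingolipids, was the elongase with the least agreement between probe sets. Its brightest probe set read 51.6 units in fasted null and 42.5 units in fasted wild-type liver, a log2 difference of 0.28. Its other 2 probe sets had log2 differences of 0.65 and 0.55, the second against a wild-type value under the floor. All 3 Elovl1 probe sets carry a suffix that marks possible matches to more than 1 transcript. Over 861 genes with several bright probe sets (64 units or more on all arrays), the differences of a gene's probe sets in this comparison had a pooled SD of 0.299.

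**Figure D2:**
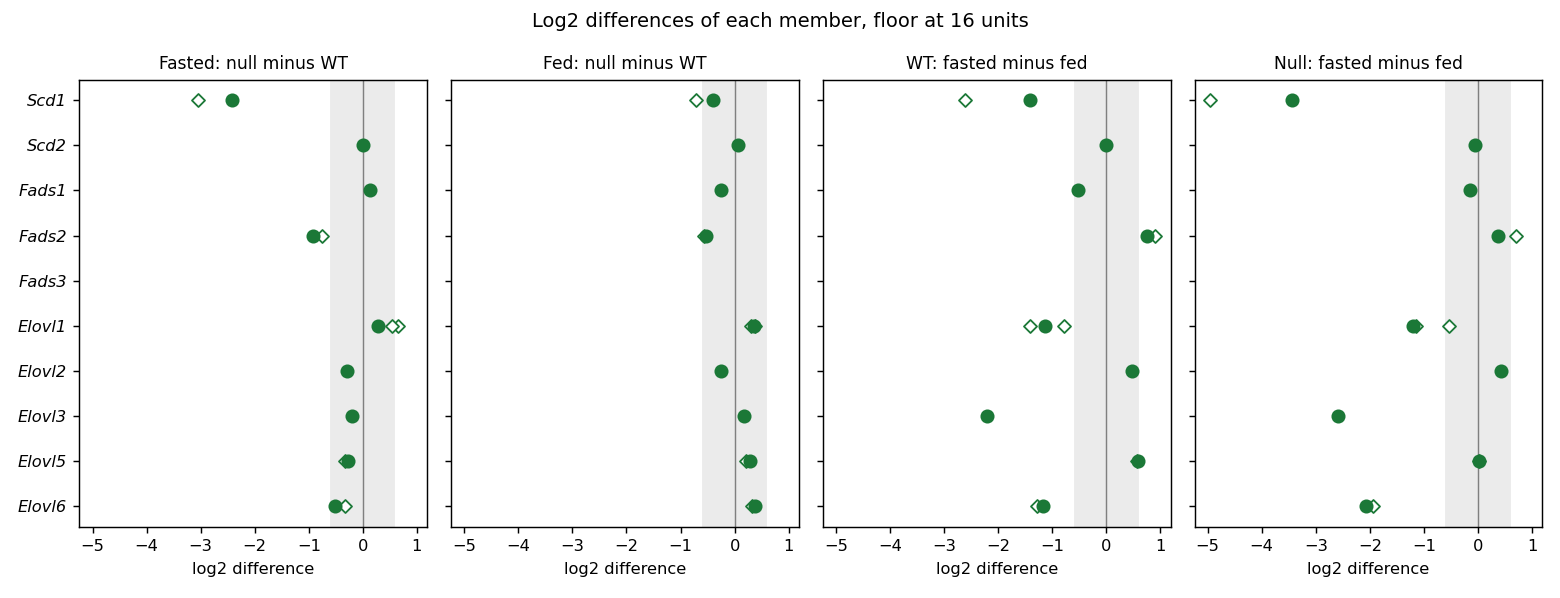
Log2 differences (x axis) of each gene in the 4 comparisons, with large filled circles for the brightest probe set, small open diamonds for other probe sets above the floor on at least 1 array, and grey for differences under 1.5-fold. There is 1 pooled array per group and no error bar, and Fads3 has no point because it was not measured. Scd1 sat at -2.43 between the fasted pools and at -0.39 between the fed pools.

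In the fed state fewer differences were seen. None of the 9 measured genes passed the threshold in fed PPARα-null against fed wild-type liver in its brightest probe set, in either direction, with backgrounds of 2.12% of measured genes lower and 2.38% higher. Their median log2 difference was 0.06, and that of all measured genes was 0.00. This median is the value of Scd2, a bound set by the floor. Of the 9 genes, 4 had a difference below 0 and 5 above it. Fads2 was nearest to the threshold at 617 units in fed null and 888 units in fed wild-type liver, a log2 difference of -0.52, and its second probe set had -0.56. Scd1 read 2586 units in fed null and 3399 units in fed wild-type liver, 1.31-fold lower, while its dimmer probe set read 495 units in fed null and 815 units in fed wild-type liver and passed the threshold with a log2 difference of -0.72.

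The fed elongase values were close between genotypes. Elovl6 read 67.4 units in fed null and 51.6 units in fed wild-type liver, and Elovl1 read 119 units in fed null and 93.4 units in fed wild-type liver. Their log2 differences of 0.39 and 0.35 were the highest among the 10 genes in the fed state with the floor applied. Elovl5 had a log2 difference of 0.28 and Elovl3 of 0.18, while Elovl2 had -0.25 and Fads1 -0.26. Values under the threshold from single arrays do not show that the genotypes were equal.

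The fasting response of wild-type liver divided the group. Scd1, Elovl1, Elovl3 and Elovl6 were lower by the 1.5-fold criterion in fasted than in fed wild-type liver, and Fads2 and Elovl5 were higher. These 4 and 2 of the 9 measured genes stand beside 8.29% of all measured genes lower and 8.20% higher. The median of the 9 genes was -0.52 and that of all measured genes 0.00. This comparison shares the fasted wild-type array with the comparison of the fasted pools and the fed wild-type array with that of the fed pools.

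By the brightest probe sets, Elovl3 had the lowest fasting difference of the group in wild-type liver. It read 238 units in fasted and 1100 units in fed liver, or 4.63-fold lower. Scd1 read 1279 units in fasted and 3399 units in fed wild-type liver, 2.66-fold lower, and its dimmer probe set had a log2 difference of -2.62. Elovl6 read 23.0 units in fasted and 51.6 units in fed wild-type liver, 2.24-fold lower, with -1.28 in its second probe set. Elovl1 read 42.5 units in fasted and 93.4 units in fed wild-type liver, a log2 difference of -1.14, and its other probe sets had log2 differences of -1.42 and -0.78.

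Fads2 read 1501 units in fasted and 888 units in fed wild-type liver, 1.69-fold higher, with a log2 difference of 0.90 in its second probe set. Elovl5 read 7283 units in fasted and 4853 units in fed wild-type liver. Its log2 difference of 0.585 lay at the threshold itself, and its second probe set had 0.56, just under it. Elovl2 read 6436 units in fasted and 4658 units in fed wild-type liver, a log2 difference of 0.47, so the 3 genes of the polyunsaturated path other than Fads1 had positive values. Fads1 read 1482 units in fasted and 2132 units in fed wild-type liver, a log2 difference of -0.52. The neighbours Fads1 and Fads2 thus had fasting differences of opposite sign in wild-type liver.

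In PPARα-null liver the same 4 genes, Scd1, Elovl1, Elovl3 and Elovl6, were lower on fasting, and none passed the threshold upward by its brightest probe set. The background was 18.0% of measured genes lower and 12.4% higher, which is above that of wild-type liver in both directions. Scd1 read 238 units in fasted and 2586 units in fed null liver, 10.9-fold lower, with a bound of -4.95 in its dimmer probe set. Elovl3 read 207 units in fasted and 1246 units in fed null liver, 6.01-fold lower. Elovl6 read 15.2 units in fasted and 67.4 units in fed null liver and was at least 4.21-fold lower. Elovl1 read 51.6 units in fasted and 119 units in fed null liver, 2.31-fold lower.

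On fasting in null liver the genes of the polyunsaturated path had the following values. Fads2 read 796 units in fasted and 617 units in fed null liver, a log2 difference of 0.37, but its second probe set passed the threshold with 0.71, at 694 units in fasted and 425 units in fed null liver. Elovl2 read 5272 units in fasted and 3930 units in fed null liver, a log2 difference of 0.42. Elovl5 read 6005 units in fasted and 5896 units in fed null liver, a log2 difference of 0.03. Fads1 had -0.14. The median of the 9 measured genes was -0.14, and that of all measured genes was -0.01. Bright probe sets had a median of -0.130 on fasting in null liver. With the arrays centred on bright probe sets, the median of the 9 genes was -0.033.

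The fasting difference in null minus that in wild-type liver uses all 4 arrays and was not tested. Scd1 stood lowest at -2.03, which means that the ratio of fasted to fed level was 4.09-fold lower in null liver. Its dimmer probe set had -2.33, a bound, since that probe set was under the floor in fasted null liver. Elovl6 followed with -0.91, a value that rests on a null array at the floor, and its second probe set had -0.66. Elovl5 had -0.56 and -0.53 in its 2 probe sets. Fads2 had -0.39 and -0.19, and Elovl3 had -0.38. Elovl1 had -0.07 in its brightest probe set and 0.28 and 0.25 in the others, so its sign depends on the probe set. Elovl2 had -0.04, and 0.11 when the arrays were centred on bright probe sets. Fads1 had 0.38. Over the same 861 genes, the probe sets of a gene had a pooled SD of 0.341 in this quantity.

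Across the 4 arrays the order of levels differed among the genes. Scd1 was highest in fed wild-type liver, followed by fed null, fasted wild-type and fasted null liver, over a 14.3-fold range. Elovl3 and Elovl6 were highest in fed null and lowest in fasted null liver, with ranges of 6.01-fold and at least 4.21-fold. Within them the 2 fed pools differed by under 1.5-fold and so did the 2 fasted pools, except for Elovl6, whose fasted null level is only bounded. Elovl1 also had both fed pools above both fasted pools, over 2.81-fold. Elovl2, Elovl5 and Fads2 were highest in fasted wild-type liver, with ranges of 1.64-fold, 1.5-fold and 2.43-fold. By the brightest probe sets Fads2 was second highest in fed wild-type liver, whereas Elovl2 and Elovl5 were second highest in fasted null liver. The second Fads2 probe set placed fasted null liver second, at 694 units, above fed wild-type liver at 628 units. Fads1 covered 1.44-fold, so no pair of its levels was separated by the threshold.

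For the 3 genes with the widest range, the genes with the most similar pattern were found by the root mean square difference of log2 values centred on each gene's mean over the 4 arrays. Scd1 was nearest to Dusp6, a MAP kinase phosphatase gene (0.087), Tmem19 (0.121) and Chordc1 (0.159), out of 2900 genes that reached log2 of 7 on at least 1 array. Dusp6 read 22.6 units in fasted null and 144 units in fasted wild-type liver, and 274 units in fed null and 352 units in fed wild-type liver. Elovl3 was nearest to the cell cycle gene Cks1b (0.051), to Fdft1, the squalene synthase gene (0.175), and to Tsc22d1 (0.181). Elovl6 was nearest to Nqo2 (0.048), Galnt4 (0.086) and Ostc (0.090), out of 2901 genes. With 4 arrays such likeness is a description of these arrays.

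**Figure D3:**
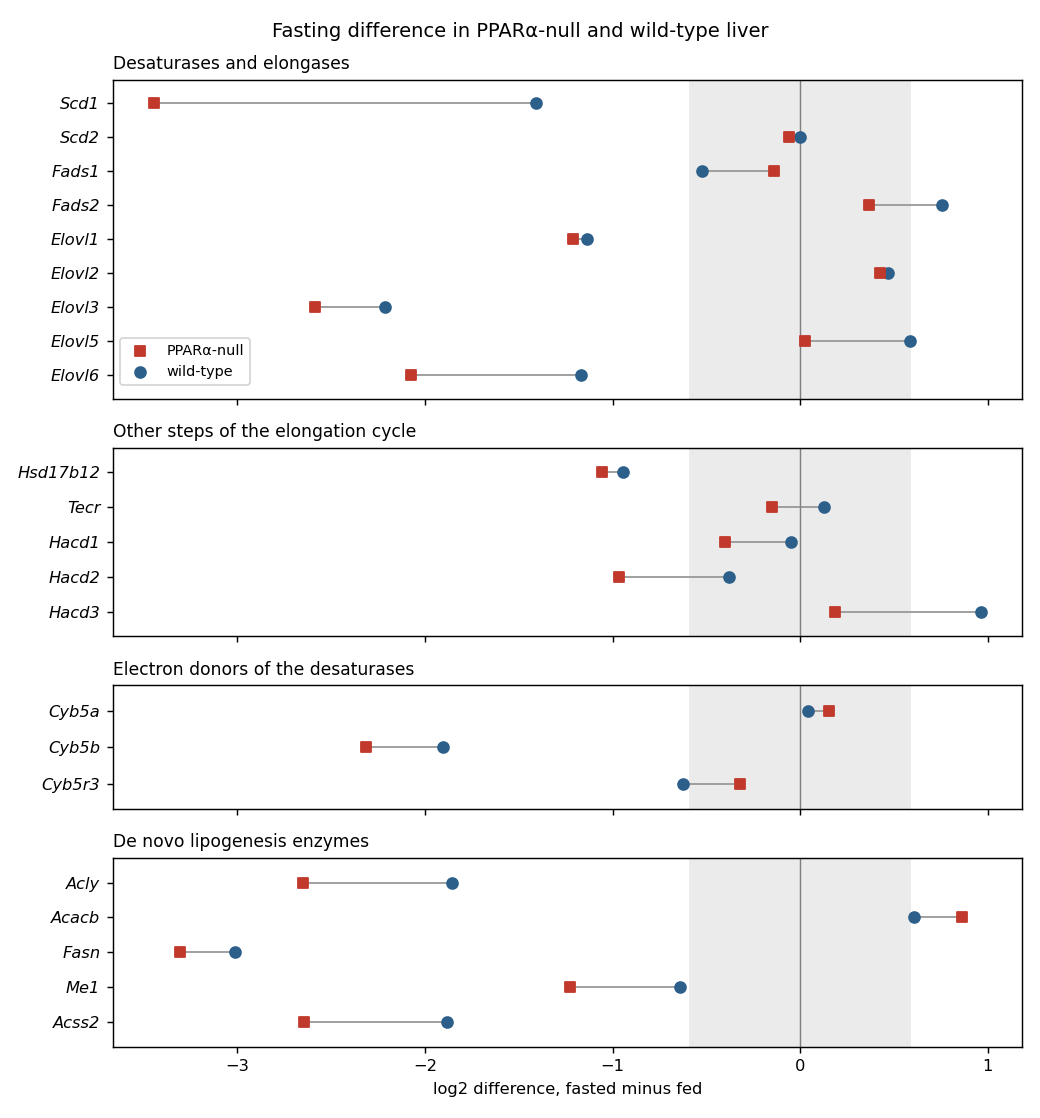
Log2 difference of fasted minus fed liver (x axis) in PPARα-null (red squares) and wild-type mice (blue circles) for the 9 measured desaturase and elongase genes and for measured genes of 3 lists of connected steps. The grey band marks differences under 1.5-fold, and each point compares 2 pooled arrays. Scd1 lay at -3.44 in null and at -1.41 in wild-type liver, and Elovl2 at 0.42 in null and at 0.47 in wild-type liver.

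Chain elongation needs 3 further steps after the condensing enzyme. Of the 5 measured genes of these steps, 3 were lower and none was higher in the fasted null pool than in the fasted wild-type pool, with a median log2 difference of -0.72, beside 13.6% lower and 8.58% higher among all measured genes. Hacd3, a gene of the dehydratase family of this cycle, read 692 units in fasted null and 1988 units in fasted wild-type liver, and 607 units in fed null and 1019 units in fed wild-type liver, and so was lower in null liver in both states. Hacd2 and Hacd1 of the same family had log2 differences of -0.72 and -0.72 between the fasted pools. Hsd17b12, the gene of the ketoacyl reductase, had -0.37 between the fasted pools but was lower on fasting in both genotypes, with -1.06 in null and -0.94 in wild-type liver. Tecr, the gene of the final reductase, had -0.02 between the fasted pools.

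Desaturases receive electrons through cytochrome b5 and its reductase. None of the 3 measured genes of this list passed the threshold between genotypes in either state. Among all measured genes, 13.6% were lower and 8.58% higher in null liver in the fasted pools. In the fed pools the shares were 2.12% lower and 2.38% higher, so a count of none among 3 genes is near the background. Cyb5a, the gene of microsomal cytochrome b5, read 7875 units in fasted null and 7154 units in fasted wild-type liver. Cyb5b, which encodes the form of the mitochondrial outer membrane, read 314 units in fasted and 1560 units in fed null liver, and 442 units in fasted and 1652 units in fed wild-type liver. Its fasting differences of -2.31 in null and -1.90 in wild-type liver were the lowest of the list.

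Among de novo lipogenesis enzymes, which supply the palmitate for Elovl6 and Scd1, 4 of 5 measured genes were lower on fasting and 1 was higher in each genotype, beside 18.0% lower and 12.4% higher of all measured genes in null liver and 8.29% lower and 8.20% higher in wild-type liver. The 1 higher gene was Acacb, with low signal on all arrays. It read 35.3 units in fasted and 19.4 units in fed null liver. In wild-type liver it read 24.4 units fasted and 12.1 units fed, the latter under the floor, so its difference of 0.608 is a bound. Fasn, the fatty acid synthase gene, read 89.1 units in fasted and 881 units in fed null liver, and 64.3 units in fasted and 518 units in fed wild-type liver. Between the fasted pools, where 13.6% of all measured genes were lower, 3 of the 5 were lower in null liver, namely Acly (-0.66), Me1 (-1.07) and Acss2 (-0.92), and Fasn had 0.47. Fasn therefore did not share the fasted genotype difference of Scd1. Of the 9 measured regulators, Srebf1, the gene of SREBP-1, read 12.2 units in fasted null liver, under the floor, and 16.9 units in fasted wild-type liver, against 394 units in fed null and 387 units in fed wild-type liver. Mlxipl, the ChREBP gene, had log2 differences of -0.74 between the fasted pools and -0.09 between the fed pools, whereas Thrsp, a lipogenic regulator gene, had 2.76 and -0.32.

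Polyunsaturated acyl chains are activated and esterified by a further set of enzymes and shortened in peroxisomes. Of 8 measured genes of activation and acylation, none was higher between the fasted pools and 2 were lower in null liver, namely Acsl5 (-1.56) and Slc27a2 (-0.67), beside 13.6% lower and 8.58% higher among all measured genes. Lpcat3, which places polyunsaturated chains into phospholipids, had 0.00 between the fasted pools and -0.64 between the fed pools. In the peroxisomal list 6 of 7 measured genes were lower in fasted null liver and none was higher, beside the same shares, with a median of -2.10. The lowest values were those of Decr2 (-4.07), Ehhadh (-2.77), Acaa1a (-2.42) and Acaa1b (-2.10). Hsd17b4, which acts in the last cycle toward docosahexaenoate, had -1.72 between the fasted pools and -1.08 between the fed pools. Elovl2, the elongase that supplies this path, had -0.29 and -0.25 in the same 2 comparisons. Of 5 other desaturase and elongase genes on the array, Scd3, Elovl4, Elovl7 and Degs2 were under the floor on all arrays, and the ceramide desaturase gene Degs1 had 0.28 between the fasted pools.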

How the data were processed

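Liver RNA of 4 pooled groups was measured on 1 Affymetrix MOE430A array each, and groups were taken from the array titles. The authors made the deposited intensities with GCRMA (submitters' processing notes, version 2.20), which corrects background from probe sequence, normalizes quantiles and summarizes probe sets. The values are linear, with medians between 14.4 and 14.6 units. No scanner data were used, and the sources used here do not say which arrays were normalized as a set.

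Of 22690 probe sets, 20393 name 1 gene and were used. Values were taken to log2 and floored at 4, and a fold against a floored array is a bound. The 1.5-fold criterion follows the study's methods for pooled arrays. Named genes were the 10 members, Ppara, the 3 nearest patterns of the 3 members with the widest range, and up to 4 genes of each list with large differences. Fasn, Tecr, Lpcat3, Hsd17b4, Degs1, Scd3, Elovl4, Elovl7 and Degs2 were added after their values were seen. Members and lists were chosen with earlier results of these data known.

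Alternatives were a 2-fold threshold, no floor or one at log2 of 6, quantile normalization, centring on probe sets of 64 units or more, lowess (fraction 0.3), omission of suffixed probe sets and averaging of probe sets. The steps that take differences and apply the threshold were checked on simulated arrays with 2-fold changes in genes well above the floor. This check does not cover genes near the floor or the choice of probe set. Python 3.11.15, numpy 2.4.6, pandas 2.3.3 and statsmodels 0.14.6 were used. Promoters are from RefSeq (GRCm38.p6).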

Additional observations from a re-analysis of the deposited data

Results flagged for a closer look

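In 4 genes the genotype difference had opposite signs in the fasted and the fed pools, which was not tested with 1 array per group. Elovl6 had -0.52 fasted and 0.39 fed on the log2 scale, so that the 2 differed by -0.91, with the fasted null value at the floor. Elovl5 had -0.28 fasted and 0.28 fed, a difference of -0.56 that its second probe set repeated at -0.53. Elovl3 had -0.20 fasted and 0.18 fed (-0.38), and Fads1 had 0.12 fasted and -0.26 fed (0.38). With the floor, all single genotype differences in these 4 genes were under 1.5-fold. The share of all measured genes with such opposite signs was not counted, so the 4 genes have no background to stand beside. Over 861 genes with several bright probe sets, the probe sets of a gene had a pooled SD of 0.341 in the difference between the 2 states.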

How the results depend on the processing

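Scd1 kept its calls under all alternatives tried at 1.5-fold and at 2-fold. With the 2-fold threshold the count of lower genes between the fasted pools was 1, which left out Fads2, and the count of higher genes on fasting in wild-type liver was 0. This second count was 1 under quantile normalization, centring, lowess and averaging of probe sets, in each of which Elovl5 had a log2 difference between 0.54 and 0.583, under the threshold. Centring on bright probe sets added 0.152 to differences between the fasted pools and 0.130 to the fasting differences in null liver where neither array was at the floor, and less for Elovl6 and Scd2, and the median between the fasted pools became -0.126. Without a floor 1 gene was higher in fed null liver, which was Scd2 at 0.706 from 16.7 units in fed null and 10.2 units in fed wild-type liver. With the floor at log2 of 6 (64 units) the count of lower genes on fasting in wild-type liver was 2, since Elovl6 and Elovl1 lie near or under that level. Averaging probe sets gave 1 higher gene between the fasted pools, Elovl1 at 0.619, and a median of -0.874 on fasting in wild-type liver. That median was -0.286 without a floor, and -0.262 both with the floor at log2 of 6 and without suffixed probe sets, beside -0.525 as reported. The median on fasting in null liver, -0.142 as reported, was -0.504 without a floor, -0.551 with averaged probe sets, -0.081 with quantile normalization and -0.033 with centring. The fed median, 0.061 as reported, was -0.032 with averaged probe sets, -0.086 with the floor at log2 of 6 and -0.092 without suffixed probe sets. Without suffixed probe sets Elovl1 has no probe set left. Fads3 enters the medians when no floor is set. Scd2 drops out of them with the floor at log2 of 6 and with averaged probe sets. The medians under these settings are therefore over different genes, and their changes also reflect which genes were counted. Signal near background limits Elovl6, Elovl1, Scd2 and Fads3. No paired analysis was possible because each group holds 1 pooled array.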
